A study of Mus musculus with 6 samples.

Results

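The TAM receptors Mertk, Axl and Tyro3 are a family of receptor tyrosine kinases, and Gas6 and Pros1 encode their bridging ligands. The 5 genes were taken by symbol from a table of 21760 gene symbols, and earlier results of these data were known when they were chosen. All 5 passed the filter on low counts that left 15560 genes for testing. The table comes from RNA sequencing of macrophages that were sorted by flow cytometry from MC38 tumours, a mouse colon carcinoma line grown under the skin of C57BL6 mice for 16 days. Tumours were wild type (WT, 2 mice, labelled WTb) or knocked out (KO) for Xkr8, as clone 1 (2 mice) or clone 2 (2 mice), and each library came from 1 mouse. The mice received no further treatment. The knockout lay in the tumour cells and not in the macrophages, each clone is a single line, and the labels give neither the age or sex of the mice nor the markers of the sort. Nothing in the labels says how the mice were housed or paired. The p-values measure the spread between these mice, which in KO against WT includes the difference between the clones. They do not measure the spread over further knockout lines.

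Xkr8 is a scramblase that caspases activate, and it moves phosphatidylserine to the outer face of a dying cell. Gas6 and protein S (Pros1) bind that phosphatidylserine through a domain that vitamin K dependent carboxylation makes competent, and their other end docks on a TAM receptor of a phagocyte. Mertk carries much of the clearance of dying cells by macrophages, Axl is known as a receptor raised by inflammatory signals, and Tyro3 is best known from the nervous system and dendritic cells. Gas6 activates all of these receptors, whereas protein S acts on Mertk and Tyro3. Signals from the receptors also dampen cytokine responses. The comparison asks how this receptor system stood in macrophages when the tumour cells around them lacked Xkr8.

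One library, WT mouse 2, was shallower than the rest, with 20038047 estimated reads against 37090034 to 40022755. Of its reads 24.6% belonged to Rn45s, a precursor of ribosomal RNA, against 1.46% to 7.12% elsewhere. Levels are therefore given as CPM, reads scaled to a common library size, here with TMM factors (a trimmed mean of ratios between libraries). Xkr8 itself stood at 4.14 to 6.97 CPM in every library, which does not check the labels, because the macrophages belong to the host. The sorted cells carried macrophage genes at high levels, with 9 markers summing to 8485 and 11984 CPM in the WT libraries, and KO libraries lay at 8704 to 10150 CPM. Markers of monocytes (6 genes) summed to 294 and 73.2 CPM in WT mouse 1 and 2 and to 475 to 908 CPM in the KO libraries, and markers of T and NK cells (9 genes) to 11.9 and 21.2 against 43.2 to 74.9 CPM. Fibroblast markers (10 genes) summed to 4160 and 12015 CPM in WT mouse 1 and 2, mostly from Col3a1. In the KO libraries they summed to 2476 to 3952 CPM. Without Col3a1 the sums were 526 and 695 CPM in WT against 639 to 773 CPM in KO. The part of these other cell types in the results below was not tested. A bulk library cannot tell fewer cells of a type from less RNA per cell.

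The libraries of sorted macrophages from MC38 tumours carried far more Axl than any other gene of the system. Per kilobase of the longest annotated transcript, which makes genes comparable, Axl had a median of 196 CPM over the 6 libraries (161 to 298). Mertk followed with 19.7 (16.3 to 25.8), Gas6 with 18.9 (6.31 to 29.7), Pros1 with 10.6 (4.35 to 14.4) and Tyro3 with 5.78 (4.77 to 7.26) CPM per kilobase. Within single libraries Axl stood 7.54 to 16.9 times above Mertk and 26.4 to 42.1 times above Tyro3. Of 14910 tested genes with an annotated length, 1.08% to 1.97% exceeded Axl in a library, 15.9% to 24.5% exceeded Mertk and 41.6% to 52.8% exceeded Tyro3.

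The order below Axl was not fixed. Mertk was above Gas6 in 3 of 6 libraries, so these neighbours did not differ beyond their spread. Gas6 was above Pros1 in 5 of 6 libraries, with clone 2 mouse 2 as the exception, and Pros1 was above Tyro3 in 5 of 6, with WT mouse 2 as the exception. Mertk was above Tyro3 and above Pros1 in 6 of 6 libraries, and those ranges did not overlap. The order of the 5 genes was the same in each library when the length of all annotated exons replaced that of the longest transcript.

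**Figure D1:**
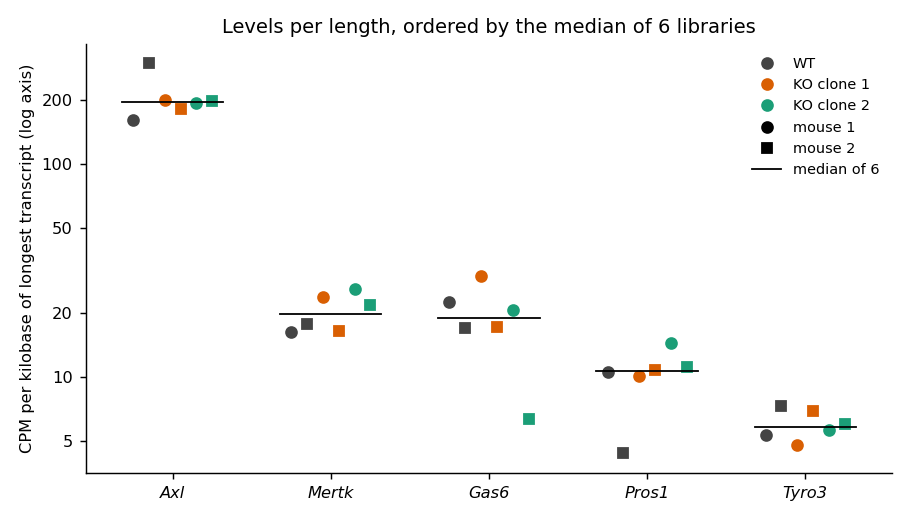
CPM per kilobase of the longest transcript on a log axis for the 5 genes, ordered by the median of the 6 libraries (black line). Colours give the group and symbols the mouse number. Axl lies between 161 and 298 in every library, while Mertk and Gas6 share a range and Pros1 is lowest in WT mouse 2.

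The genes lie apart in the genome (GRCm38, GENCODE M21). Tyro3 (ENSMUSG00000027298.17) spans 119797733 to 119818104 and Mertk (ENSMUSG00000014361.5) 128698956 to 128802894 on the plus strand of chromosome 2. Axl (ENSMUSG00000002602.16) lies on the minus strand of chromosome 7 from 25757273 to 25788705. Gas6 (ENSMUSG00000031451.6) lies on the minus strand of chromosome 8 from 13465374 to 13494490, and Pros1 (ENSMUSG00000022912.8) on the plus strand of chromosome 16 from 62854307 to 62929346. All 5 are protein coding. Whether the counting used strand is not stated, and Gas6 shares 34 exonic bases with Tmem255b on the other strand, a gene at no more than 0.176 CPM in any library. The other 4 genes share no exonic base with another annotated gene.

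No receptor or ligand gene passed the test in any comparison. By edgeR's quasi-likelihood test with Benjamini-Hochberg adjustment over 15560 genes, 0 of 5 passed in KO against WT, where 0.135% of all genes tested did. The count was also 0 of 5 in clone 1 against WT (0.00643% of all genes), in clone 2 against WT (0.00643%) and in clone 2 against clone 1 (0%). At an unadjusted p under 0.05 it was 0 of 5 in each of the 4 comparisons, with a smallest p of 0.0956 by edgeR. Over all genes, 13.6% had an unadjusted p under 0.05 in KO against WT, 7.1% in clone 1 against WT and 11.3% in clone 2 against WT. DESeq2 called 0 of 5 in each comparison. Of all 15560 genes it called 499 in KO against WT, 271 in clone 1 against WT and 465 in clone 2 against WT. Those shares are too small for 0 of 5 to set the members apart from other genes. Between clones, where edgeR called 0 genes, 502 had an unadjusted p under 0.05 and DESeq2 called 117. The comparisons with WT share the same 2 WT libraries, so their values are not independent of each other.

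**Figure D2:**
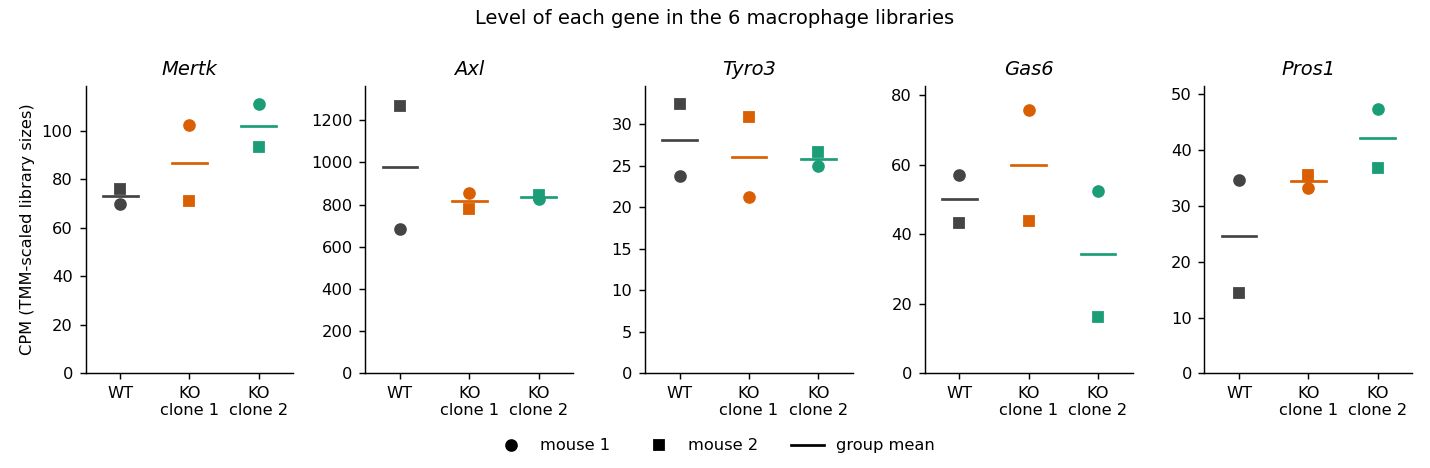
CPM on TMM-scaled library sizes for each gene in the 6 libraries, on linear axes from 0. Points are single libraries, with circles for mouse 1 and squares for mouse 2, and lines are means of 2 mice. The KO points for Axl lie between 777 and 855 CPM, inside the gap between the WT points at 685 and 1269 CPM.

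Among the receptors, Mertk had the largest absolute log2 fold change in KO against WT with all libraries. Its genotypes overlapped, and 48.8% of genes tested had a larger absolute value. Mertk stood at 70.0 CPM in WT mouse 1 and 75.9 CPM in WT mouse 2. In clone 1 it stood at 102 CPM in mouse 1 and 70.8 CPM in mouse 2, and in clone 2 at 111 and 93.3 CPM. Thus 3 of 4 KO libraries were above both WT libraries, and clone 1 mouse 2 lay between them. The clone 2 libraries were both above the WT libraries, as was the case for 26.5% of all genes tested.

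Mertk averaged 94.3 ± 17.2 CPM over the KO libraries (SD, n = 4) and 72.9 ± 4.24 CPM over the WT libraries (SD, n = 2). The spread of the WT libraries depended on the scaling. With plain library totals the average was 68.2 ± 18.5 CPM in WT, 91.4 ± 25.5 CPM in clone 1 and 105 ± 5.31 CPM in clone 2. With totals without Rn45s the WT average was 77.8 ± 6.65 CPM. On the log2 scale KO exceeded WT by 0.37 ± 0.21 (SE, adjusted p = 0.426 by edgeR). The 95% interval of the fold ran from 0.920 to 1.82, so neither an equal level nor a KO level above WT by that upper bound lies outside it. Clone 2 differed from WT by 0.48 ± 0.25 and clone 1 by 0.25 ± 0.25 on the log2 scale. The difference between the clones was 0.24 ± 0.25 (adjusted p = 1 by edgeR). Clone 1 against WT gave -0.034 without clone 1 mouse 1 and 0.49 without clone 1 mouse 2. The difference between clones was 0.53 and 0.0026 in the same fits.

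The KO level of Mertk relative to WT depended on which macrophage gene it was set against. Per 100 reads of Csf1r, the receptor for the growth factor CSF1, there were 6.28 and 4.65 reads of Mertk in WT mouse 1 and 2 and 6.69 to 8.51 in KO libraries, with no overlap, as for 9.38% of all genes tested when set against Csf1r. Csf1r itself was at 1114 and 1633 CPM in WT and at 1059 to 1302 CPM in KO, so it was highest in WT mouse 2. Per 100 reads of Adgre1, which encodes F4/80, there were 10.5 and 14.4 in WT and 9.23 to 11.8 in KO libraries, which overlap. Adgre1 itself measured 667 and 528 CPM in the WT libraries, and KO libraries lay at 767 to 966 CPM.

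On TMM-scaled library sizes Axl, the most abundant receptor, was almost level among KO libraries and differed between the WT libraries. It stood at 685 CPM in WT mouse 1 and 1269 CPM in WT mouse 2. In clone 1 the libraries of mouse 1 and 2 stood at 855 and 777 CPM, and in clone 2 at 828 and 847 CPM. All 4 KO libraries lay between the WT libraries. The ratio of the higher to the lower library was 1.85 in WT but 1.10 over the 4 KO libraries. The WT pair was uneven over all genes as well, with a median ratio of 1.55, and 34.9% of genes tested had a larger ratio than Axl.

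Axl averaged 827 ± 35.1 CPM over the KO libraries (SD, n = 4) and 977 ± 413 CPM over the WT libraries (SD, n = 2). The gap between the WT libraries depended on the scaling. With plain library totals the average was 859 ± 88.0 CPM in WT, 860 ± 78.9 CPM in clone 1 and 867 ± 76.1 CPM in clone 2. With totals without Rn45s the WT average was 1015 ± 293 CPM. The log2 fold change of -0.24 ± 0.25 (SE) had an adjusted p of 0.612 by edgeR and a 95% interval of 0.561 to 1.28 on the fold scale. Its direction was set by the WT library used. Without WT mouse 2 the log2 fold change was 0.25 (adjusted p = 0.788), and without WT mouse 1 it was -0.60 (adjusted p = 0.0189). The latter fit called 37.5% of all genes tested and 2 of the 5 members, Axl and Pros1, a share near that of all genes, while the former called 0.174%. Per 100 reads of Csf1r, Axl gave 61.5 and 77.7 reads in WT and 63.6 to 73.4 in KO libraries, again with all KO libraries inside the WT range.

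Tyro3 was the lowest of the receptors in every library, and its groups overlapped. It stood at 23.8 and 32.4 CPM in WT mouse 1 and 2, at 21.3 and 30.8 CPM in clone 1 mouse 1 and 2, and at 24.9 and 26.6 CPM in clone 2. Clone 1 mouse 2 and WT mouse 2 were the highest libraries and clone 1 mouse 1 was the lowest. KO against WT gave a log2 fold change of -0.11 ± 0.22 (SE, adjusted p = 0.78 by edgeR) and a 95% interval of 0.649 to 1.32 on the fold scale. Without WT mouse 2 the value was 0.10 and without WT mouse 1 it was -0.31, so its sign is not settled.

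Of the ligands, Gas6 had its widest spread among the KO libraries. It stood at 57.0 and 43.1 CPM in WT mouse 1 and 2. In clone 1 it stood at 75.7 CPM in mouse 1 and 43.8 CPM in mouse 2, and in clone 2 at 52.4 and 16.1 CPM. The highest and the lowest library were both from KO tumours. The average was 47.0 ± 24.6 CPM over the KO libraries (SD, n = 4) and 50.1 ± 9.79 CPM over the WT libraries (SD, n = 2).

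Gas6 differed widely between the clone 2 mice. The median ratio of the higher to the lower library of clone 2 was 1.08 over all genes tested, against 1.21 in clone 1 and 1.55 in WT, and it was 3.26 for Gas6. Only 1.18% of genes tested had a larger ratio. In clone 1 the ratio for Gas6 was 1.73, with 11.7% of genes above it, and in WT it was 1.32. Gas6 rests there on 2059 reads in mouse 1 and 669 reads in mouse 2 of clone 2. Of the collagens among the fibroblast markers, Col1a1 and Col1a2 were also lower in clone 2 mouse 2, at 12.2 against 20.1 CPM and 19.6 against 44.6 CPM. Col3a1, the most abundant of them, was higher there, at 3215 against 2980 CPM, as was Dcn, another fibroblast marker, at 470 against 384 CPM. Of the other fibroblast markers, Postn, Thy1, Lum and Fap were lower in clone 2 mouse 2, and Pdgfra and Pdgfrb were higher. The 9 fibroblast markers other than Col3a1 summed to 737 against 643 CPM there, and their part in the level of Gas6 was not tested.

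In KO against WT, Gas6 had a log2 fold change of -0.09 ± 0.50 (SE, adjusted p = 0.929 by edgeR) and a 95% interval of 0.416 to 2.11 on the fold scale. Clone 1 against WT gave 0.25 ± 0.55, and clone 2 against WT gave -0.55 ± 0.55. Clone 2 differed from clone 1 by -0.80 ± 0.55 (adjusted p = 1). That value was -0.19 without clone 2 mouse 2 and -1.88 without clone 2 mouse 1, where the adjusted p was 1 again. Clone 2 against WT likewise gave 0.072 without mouse 2 and -1.64 without mouse 1 of clone 2. KO against WT ran from -0.42 without clone 1 mouse 1 to 0.19 without clone 2 mouse 2. The interval between clones ran from 0.228 to 1.44 on the fold scale, so a fall of several-fold and a modest rise both lie within it.

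Pros1 had the largest positive value of the 5 genes in KO against WT, and that value depended on which WT library was used. Pros1 stood at 34.7 CPM in WT mouse 1 and at 14.4 CPM in WT mouse 2. In clone 1 it stood at 33.3 and 35.6 CPM, and in clone 2 at 47.4 and 36.8 CPM. All 4 KO libraries were above WT mouse 2 and 3 of 4 were above WT mouse 1. The clone 2 libraries were above both WT and both clone 1 libraries, which held for 26.5% and 21.8% of all genes tested.

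Pros1 averaged 38.3 ± 6.27 CPM over the KO libraries (SD, n = 4) and 24.5 ± 14.4 CPM over the WT libraries (SD, n = 2). Its log2 fold change of 0.63 ± 0.35 (SE) had an adjusted p of 0.416 by edgeR and a 95% interval of 0.888 to 2.71 on the fold scale. It was 0.12 (adjusted p = 0.94) without WT mouse 2 and 1.43 (adjusted p = 0.00466) without WT mouse 1, in the fit that called 37.5% of all genes. The fits of clone 1 and clone 2 without WT mouse 1 also called Axl and Pros1, among 34.5% and 40.2% of all genes tested. WT mouse 2 held 209 reads of Pros1 against 1368 to 1865 in the other libraries. With all libraries clone 1 against WT gave 0.48 ± 0.41 and clone 2 against WT 0.77 ± 0.41. Without WT mouse 2 these were -0.038 and 0.26, and without WT mouse 1 they were 1.27 and 1.56.

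**Figure D3:**
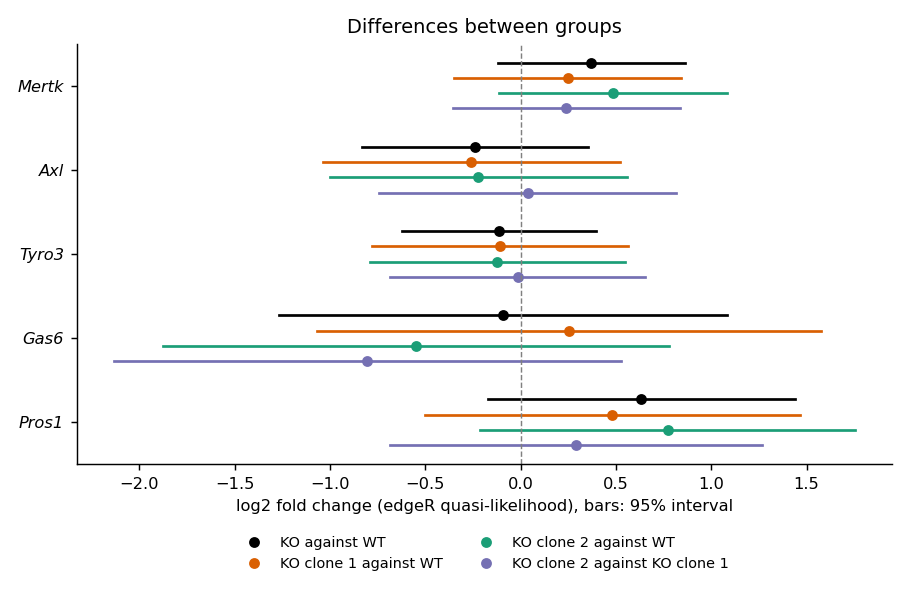
Log2 fold changes from edgeR with 95% intervals for the 5 genes in the 4 comparisons, on a linear axis with a dashed line at 0. Every interval includes 0. Intervals for Gas6 are the widest, running from -2.13 to 0.53 in clone 2 against clone 1.

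**Figure D4:**
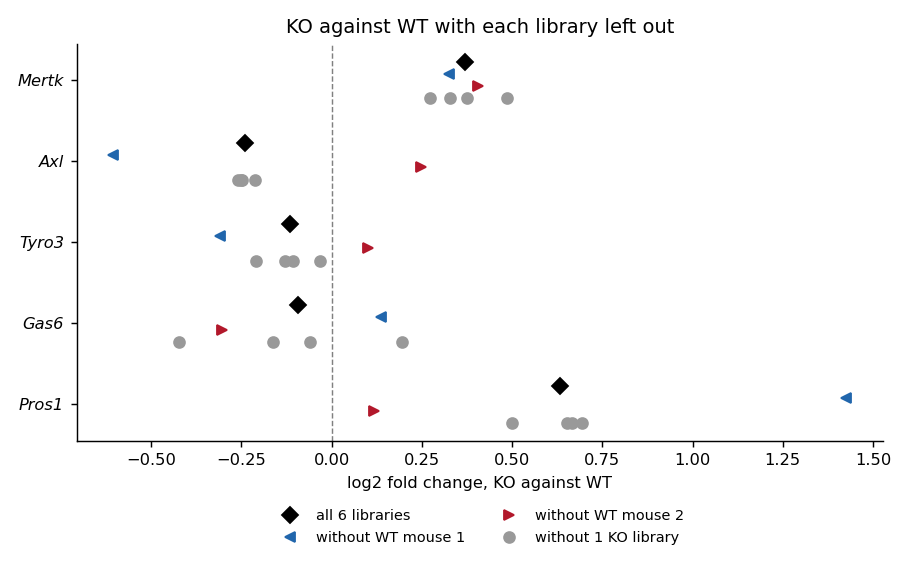
Log2 fold change of KO against WT from all 6 libraries (diamonds) and with each library left out (triangles for a WT library, grey circles for a KO library). Axl moves from -0.60 to 0.25 and Pros1 from 1.43 to 0.12 with the WT library left out, while Mertk stays between 0.27 and 0.48.

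Shares within a library do not depend on scaling between libraries. Axl made up 88.2% and 92.3% of the summed receptor level per kilobase in WT mouse 1 and 2, and 86.1% to 88.6% in KO libraries. Mertk made up 8.92% and 5.47% in WT, 10.4% and 8.01% in clone 1, and 11.4% and 9.58% in clone 2. Tyro3 stayed between 2.08% and 3.36% in all 6 libraries. The balance of the receptors was therefore alike in WT mouse 1 and the KO libraries, with WT mouse 2 at the Axl end.

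The ligands showed a less even balance. Gas6 made up 68.0% and 79.5% of the summed Gas6 and Pros1 level per kilobase in WT mouse 1 and 2. It made up 74.7% and 61.4% in clone 1 and 58.9% and 36.2% in clone 2. Both clone 2 libraries were below the other 4 in this share, and clone 2 mouse 2 was the only library in which Pros1 exceeded Gas6. The summed receptors exceeded the summed ligands in every library, by 5.54 times in WT mouse 1 and 15.2 times in WT mouse 2, and by 5.76 to 13.0 times in KO libraries. No test was made of these shares.

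**Figure D5:**
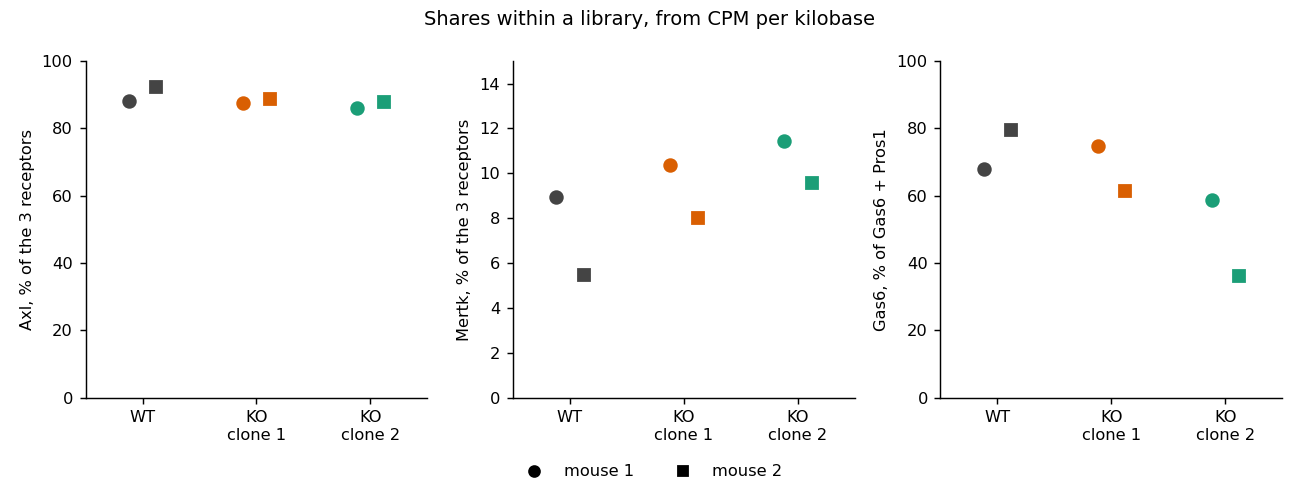
Shares from CPM per kilobase by group, with Axl and Mertk as percent of the 3 receptors and Gas6 as percent of Gas6 and Pros1. Each point is 1 library, and the axis for Mertk ends at 15%. Axl stays between 86.1% and 92.3%, while Gas6 ranges from 36.2% in clone 2 mouse 2 to 79.5% in WT mouse 2.

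The genes did not rise and fall together across libraries. Of the pairs, Axl and Pros1 had the most negative Pearson correlation of log2 CPM over 6 libraries, at -0.85, and without WT mouse 2 it was 0.24. Mertk and Axl had 0.03 over 6 libraries and 0.81 without WT mouse 2. All pairs share the same libraries and the scaling between them, so these values are descriptive.

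The genes whose pattern over the 6 libraries was most like that of each member were found among 8986 other genes with a mean of at least 10 CPM. For Mertk they were Alpk1, a kinase that senses bacterial sugars (Pearson r = 0.988), P2rx7, an ATP-gated channel (0.981), and Itga4, an integrin chain (0.979). For Axl they were Stim1, a calcium sensor (0.998), Madd (0.997) and Dnajc14 (0.996), and for Pros1 Twf1 (0.996), Dclre1a (0.996) and Sgpp1 (0.995). A correlation over 0.95 was common for Axl and Pros1, with 231 and 999 genes, against 12 for Mertk and 23 for Tyro3. WT mouse 2 was the highest library for Axl and Tyro3 and the lowest for Pros1. Without it the genes named for Axl and Pros1 kept correlations of 0.959 to 0.987. These genes were picked as the most alike over all 6 libraries, so the choice favours high values here and this is no independent check. For Tyro3 the closest were Pard3, a polarity protein (0.987), and the histone genes Hist1h2ae (0.985) and Hist1h3h (0.983), which have near-identical copies and are uncertain one by one. For Gas6 no gene reached 0.95, and the closest were Nfrkb (0.931), Ap2a2 (0.926) and Cd36, a scavenger receptor for lipids and dying cells (0.916). Cd36 stood at 50.1 and 38.2 CPM in WT, 64.9 and 27.7 CPM in clone 1, and 41.9 and 20.3 CPM in clone 2. It was lower in mouse 2 of every group, as Gas6 was. Cd36 was picked for likeness to Gas6 over these same libraries, so this shared pattern is no separate result.

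The other genes of the pathway were taken from 6 lists with 42 members, of which 41 were tested. In KO against WT 0 of 41 passed in either direction by edgeR, 24 had positive and 17 negative values, and the median log2 fold change was 0.09 against 0.003 over all genes tested. At an unadjusted p under 0.05 the count was 7 of 41 (17.1%), beside 13.6% of all genes. In clone 1 and in clone 2 against WT and between clones 0 of 41 passed as well, with 4, 5 and 0 at an unadjusted p under 0.05, beside 7.1%, 11.3% and 3.23% of all genes.

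None of the 3 genes whose enzymes make the ligands competent passed the test. Ggcx, the carboxylase that acts on Gas6 and protein S, measured 33.6 and 21.9 CPM in the WT libraries, and KO libraries lay at 25.5 to 30.4 CPM (log2 fold change 0.03 ± 0.21). Vkorc1l1, which recycles vitamin K, was at 30.8 and 26.4 CPM in WT and at 32.9 to 36.4 CPM in KO, above both WT libraries (0.27 ± 0.16, adjusted p = 0.442 by edgeR). Vkorc1, which also recycles vitamin K, was at 13.99 and 14.3 CPM in WT and at 10.4 to 13.7 CPM in KO, below both WT libraries (-0.20 ± 0.19, adjusted p = 0.578 by edgeR). Such a separation held for 12.9% of all genes tested in the upward direction and for 10.7% in the downward direction. Among other reported ligands of Mertk, Lgals3 (galectin-3) was abundant, at 724 and 355 CPM in WT, 796 and 695 CPM in clone 1 and 493 and 498 CPM in clone 2. Its value in KO against WT was 0.20 ± 0.34, while Tub did not exceed 0.329 CPM in any library.

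Proteases that shed TAM receptors from the cell surface were expressed without a difference that passed. Adam17 measured 327 and 280 CPM in the WT libraries, and KO libraries lay at 323 to 374 CPM (0.19 ± 0.17). Rhbdf2, which escorts Adam17 to the surface, stood at 72.9 and 95.7 CPM in WT, 93.6 and 73.0 CPM in clone 1 and 57.2 and 59.7 CPM in clone 2. Its value was -0.53 ± 0.24 in clone 2 against WT, with an adjusted p of 0.457 by edgeR.

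Of the 17 engulfment genes that act below the receptors, 9 had positive and 8 negative values in KO against WT, with a median of 0.04. The adaptor Crk (0.53 ± 0.20) and the exchange factor Vav3 (0.59 ± 0.23) had the smallest p, with adjusted p of 0.343 and 0.347. Itgb5, a chain of the integrin that works with Mertk in engulfment, had a value of -1.05 ± 0.39 in clone 1 against WT (adjusted p = 0.665). It stood at 428 CPM in WT mouse 1 and 996 CPM in WT mouse 2, against 338 and 349 CPM in clone 1 and 465 and 488 CPM in clone 2. Its level in clone 2 was thus above WT mouse 1 and below WT mouse 2, with a value of -0.58 ± 0.39.

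None of the 8 genes of the cytokine feedback below TAM receptors passed the test. In KO against WT 7 had positive values and 1 a negative value, with a median of 0.15 against 0.003 over all genes tested. A shared shift of these genes was not tested. Ifnar2, a chain of the type I interferon receptor with which TAM receptors cooperate, stood at 0.53 ± 0.19 (adjusted p = 0.332). The suppressors of cytokine signalling Socs1 and Socs3, which TAM receptors induce, stood at 0.03 ± 0.37 and -0.24 ± 0.23.

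Nuclear receptors were also followed, among them Nr1h3 and Nr1h2, whose products sense sterols and can raise Mertk. Nr1h3, which encodes LXR alpha, stood at 8.5 and 13.6 CPM in WT, 25.1 and 18.9 CPM in clone 1 and 19.3 and 20.6 CPM in clone 2. All 4 KO libraries were above both WT libraries, a separation in this direction that 12.9% of all genes tested showed, with a log2 fold change of 0.93 ± 0.26 and an adjusted p of 0.248 by edgeR. Nr1h2, which encodes LXR beta, had a value of -0.21 ± 0.17. Of the LXR targets, Abca1 had a value of -0.06 ± 0.29 and Abcg1 one of 0.36 ± 0.25. Ppard had a value of -1.83 ± 0.55 (adjusted p = 0.286), but WT mouse 2 held 60.7 CPM of it against 11.1 CPM in WT mouse 1 and 8.61 to 13.9 CPM in the KO libraries.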

How the data were processed

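Per the labels' protocols, total RNA of sorted macrophages was depleted of ribosomal RNA and made into TruSeq libraries. The authors deposited 1 estimated count per symbol and library, unscaled and in whole numbers. The submitters' processing notes name Salmon 0.7.2 and mm10. For the transcript set and the sum over transcripts of a gene, the method is not given in the sources used here.

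Counts were tested with edgeR 4.0.16 (R 4.3.3), the quasi-likelihood F test, after filterByExpr (minimum count 10, minimum total 15) and TMM scaling. KO against WT used 2 genotype levels, so the difference between clones counts as spread. Clone comparisons used 3 groups that share 1 spread. The Benjamini-Hochberg adjustment covered all tested genes, and calls needed an adjusted p under 0.05. A standard error is the absolute log2 fold change divided by the square root of F, and intervals are 95%. The fits were tested on simulated counts. Libraries of a group were not copies of each other (chi-square of their counts per degree of freedom 80.5 to 860). Lengths and positions came from GENCODE M21, which matched 20429 of 21760 symbols (93.9%).

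Named genes were the 5 members, up to 2 genes of smallest p per pathway list and comparison, 7 pathway genes reported whatever their result, and the 3 genes most like each member. One gene that this rule names is not reported here. The choice of Col1a1, Col1a2, Col3a1, Dcn and the fibroblast markers named with them, of Nr1h2 and of Abcg1 followed a look at their values. The members and lists were chosen with earlier results of these data known. Alternatives were RLE size factors, DESeq2 1.42.0, other filters, removal of Rn45s, the mouse number as a block, leaving out each library, the mean of the clones, and other scalings of the levels.

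Marker lists of other cell types were summed as CPM. Fibroblast markers summed to 4160 and 12015 CPM in WT mouse 1 and 2 and 2476 to 3952 CPM in KO libraries, mostly from Col3a1, and without it to 526 and 695 against 639 to 773 CPM. Endothelial markers summed to 10.7 and 17.1 against 11.6 to 19.2 CPM, and epithelial or tumour cell markers to 15.7 and 44.1 against 11.3 to 13.2 CPM. Of the last, all but Cdh1 summed to 1.03 CPM or less in every library. Dendritic cell markers summed to 17.0 and 15.0 against 24.6 to 43.0 CPM, B cell markers to 5.89 and 3.92 against 8.44 to 13.6 CPM (without Cd79b 1.21 and 0.826 against 0.677 to 1.89), and neutrophil markers to 13.8 and 13.1 against 9.59 to 14.3 CPM (without Cxcr2 1.91 and 0.206 against 3.41 to 5.48).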

Additional observations from a re-analysis of the deposited data

How the results depend on the processing

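The values of the 5 genes in 4 comparisons were recomputed under 12 or 13 alternatives each, which gave 245 values. Of these, 220 kept the direction and the side of the threshold, 19 changed sign and 6 passed the threshold. The 6 were Axl and Pros1 in each comparison with WT without WT mouse 1, so the number of members past the threshold ran from 0 to 2 in those 3 comparisons with a library left out. With a library left out, KO against WT ran from -0.60 to 0.25 for Axl, -0.31 to 0.10 for Tyro3 and -0.42 to 0.19 for Gas6. Clone 1 against WT ran from -0.034 to 0.49 for Mertk, -0.62 to 0.23 for Axl, -0.39 to 0.14 for Tyro3, -0.19 to 0.60 for Gas6 and -0.038 to 1.27 for Pros1. Clone 2 against WT ran from -0.59 to 0.27 for Axl, -0.32 to 0.095 for Tyro3 and -1.64 to 0.072 for Gas6. Clone 2 against clone 1 ran from -0.026 to 0.11 for Axl and -0.26 to 0.28 for Tyro3. The sign of Tyro3 between clones also changed with RLE factors (0.0081), DESeq2 (0.0081) and the replicate block (0.012), all near 0.

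The count of all genes past the threshold moved far more. For KO against WT it was 21, and 499 with DESeq2, 111 without a filter, 1 for the mean of the clones, and 1 to 6020 with a library left out. For clone 1 against WT it was 1, and 271 with DESeq2, 123 without a filter, 0 with the 5 CPM filter, and 0 to 5535 with a library left out. For clone 2 against WT it was 1, and 9 with RLE factors, 465 with DESeq2, 229 without a filter, 0 with the 5 CPM filter, 8 without Rn45s, and 0 to 6445 with a library left out. Between clones it was 0, and 117 with DESeq2, 53 without a filter, and 0 to 87 with a library left out. The cause of these moves was not tested. With the mouse number as a block the counts were 15, 0, 0 and 0 genes in the order above, and 0 of 5 members passed in each. Differences between mouse 1 and mouse 2 correlated at -0.13 (WT with clone 1), 0.05 (WT with clone 2) and 0.20 (clone 1 with clone 2) over 15560 genes. Weak correlations over all genes cannot tell whether mice of the same number were paired, and the labels do not state it. A group with 1 library left was assumed to vary like the others. The lowest count behind a level of a member was 209 reads, for Pros1 in WT mouse 2.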
